A study of Mus musculus with 2 samples.

Results

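The genes of the endoplasmic reticulum (ER) stress response and the chaperones of the ER lumen were examined in whole omentum by RNA-seq. The 9 genes were taken by symbol from a list of unfolded protein response genes and luminal chaperones, and all 9 were found among the 24346 gene symbols measured. They were Hspa5, Hsp90b1, Calr, Pdia4, Dnajb9, Herpud1, Atf4, Ddit3 and Trib3. The omentum is a sheet of visceral fat that carries milky spots, which are lymphoid clusters held in a stromal network. The omentum of wild-type (WT) mice gave 1 library and that of Postn-DTR mice another, and both genotypes had been injected with diphtheria toxin (DT) 5 days earlier, so no uninjected omentum was compared. Postn-DTR mice are heterozygotes with a DT receptor placed in the first coding exon of Postn, so that cells using the Postn promoter, among them Aldh1a2+ fibroblastic reticular cells (FRCs), die after DT. That promoter is also used by other lineages such as myofibroblasts. Age, sex and the number of mice behind each library were not given in the sources used here.

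Secreted and membrane proteins fold in the ER. When unfolded proteins accumulate there, 3 sensors start the unfolded protein response. IRE1 splices Xbp1 mRNA, ATF6 is cut and enters the nucleus, and PERK phosphorylates eIF2α, which slows translation and favours that of ATF4. The ATF6 and XBP1 arms raise chaperones and the machinery that removes misfolded proteins, and ATF4 raises amino acid and stress genes, including CHOP, the product of Ddit3. ATF4 also acts downstream of other eIF2α kinases, which answer amino acid shortage, heme deficiency and viral RNA. Cells with a heavy secretory load, such as plasma cells, pancreatic acinar cells and matrix-producing fibroblasts, hold large amounts of the luminal chaperones.

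Since each genotype had a single library, the variation between replicates is unknown, no test was possible, and no difference given here has a replicate check. Values are FPKM, fragment counts scaled to transcript length and library size, so that levels can be set side by side between genes. Changes are differences in log2(FPKM + 1), with WT subtracted from Postn-DTR, over the 13127 genes whose FPKM averaged 1 or more, and folds of single genes are ratios of FPKM. All FPKM added up to 542190 (WT) and 671882 (Postn-DTR), and steps between low values placed the denominators near 23.6 and 23.9 megafragments (fragments in units of 1e6). Postn itself was at an FPKM of 58.3 in WT against 16.2 in Postn-DTR. The receptor is inserted in Postn, and the part of this insertion in the Postn value was not tested. Aldh1a2 was at 85.5 in WT against 63.3 in Postn-DTR. Adipocyte and mesothelial markers were present in both libraries, with the adipocyte markers Cfd at 7764 and 5976 and Fabp4 at 4879 and 6519, and the mesothelial marker Upk3b at 212 and 182. In whole tissue, fewer cells of a type and less RNA per cell cannot be told apart. The 14 pancreatic acinar markers summed to an FPKM of 10791 in WT against 18.5 in Postn-DTR, where 1 of them, Try4, was at 0. Ctrb1, which had the highest level of them in WT, was at 2489.7 and 1.51, Cela1 at 14.5 made up most of the sum in Postn-DTR, and no other marker of the 10 marker lists was at 0. The 6 plasma cell markers summed to 633 and 1144, and the 7 macrophage markers to 2903 and 4846. In the deposited scaling all 13 of them were above WT in the Postn-DTR library. Marker values under other scalings are not given here.

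The promoters of some of these genes carry a known element of the response. The ER stress response element (ERSE), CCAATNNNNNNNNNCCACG, is bound by NF-Y at its CCAAT end and by ATF6 or XBP1 at its CCACG end. A shorter form, ERSE-II, has the letters ATTGGNCCACG. Both were searched on both strands, with the C/EBP-ATF element TTGCATCA bound by ATF4 dimers, in RefSeq windows on GRCm38.p6 that reach from 250 bases before to 50 bases after each gene start. All 9 genes had a window. ERSE was found in 39 of 32851 windows (0.119%), among them those of Hspa5, Hsp90b1 and Calr. ERSE-II was found in 12 windows (0.0365%), among them that of Herpud1, and TTGCATCA in 294 windows (0.895%), again with Herpud1 as the only one of the 9. Only exact matches were counted, and they are descriptions of the sequence and do not show binding. The stretches are printed below from 5′ to 3′ on the strand of each gene, to show the matched elements, which are in capitals. CGTGG and ATTGG are the same ends read on the opposite strand. Creld2 and Derl3, which are not among the 9 genes but hold an ERSE, are shown as the compared genes with an ERSE whose changes were highest, and they were chosen after their values were seen. In the Herpud1 stretch the first capitals are the C/EBP-ATF element and the second the ERSE-II, and they do not overlap. Counted from the RefSeq gene start, the ERSE begins at -65 in Hspa5, at -212 and -107 in Hsp90b1 and at -162 in Calr. The ERSE-II begins at -52 in Herpud1 on the same count. The GENCODE positions of these genes, given further on, start elsewhere and would give other distances.
Hspa5 (chr2:34772020-34772049, plus strand, inside an exon of an annotated GENCODE transcript of the gene): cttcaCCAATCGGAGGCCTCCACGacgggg
Hsp90b1 (chr10:86705513-86705686, minus strand): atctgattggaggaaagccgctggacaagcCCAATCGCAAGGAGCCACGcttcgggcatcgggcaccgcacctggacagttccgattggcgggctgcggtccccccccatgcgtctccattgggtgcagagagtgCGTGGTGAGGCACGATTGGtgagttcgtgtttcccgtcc
Calr (chr8:84847055-84847123, minus strand): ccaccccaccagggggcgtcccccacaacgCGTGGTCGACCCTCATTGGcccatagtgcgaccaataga
Herpud1 (chr8:94386287-94386407, plus strand): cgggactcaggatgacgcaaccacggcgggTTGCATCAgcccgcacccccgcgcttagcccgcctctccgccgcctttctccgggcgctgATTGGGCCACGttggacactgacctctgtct
Creld2 (chr15:88819490-88819558, plus strand): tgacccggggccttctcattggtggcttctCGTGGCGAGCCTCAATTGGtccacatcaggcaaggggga
Derl3 (chr10:75893212-75893280, plus strand): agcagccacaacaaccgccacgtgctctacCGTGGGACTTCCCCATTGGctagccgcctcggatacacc

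None of the 9 genes was 2-fold higher or 2-fold lower in the Postn-DTR library, where 509 of all genes compared (3.88%) were at least 2-fold higher and 410 (3.12%) at least 2-fold lower. That split was 306 against 793 once acinar genes were left out and the FPKM totals made equal. All 9 passed the minimum of expression. In the deposited scaling the abundant luminal chaperones lay close to their WT values or below, whereas Herpud1, Atf4 and Trib3 lay 1.5-fold or more above theirs. At a 1.5-fold threshold 3 of the 9 genes were higher and 0 were lower, against 9.86% and 8.84% of all genes compared, and Atf4 lay just past that threshold. With a pseudocount of 5 all 3 lay under it, with Herpud1 at 0.58, Atf4 at 0.57 and Trib3 at 0.31. The median change of the 9 genes was 0.13, and that of all genes compared was 0.02.

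**Figure D1:**
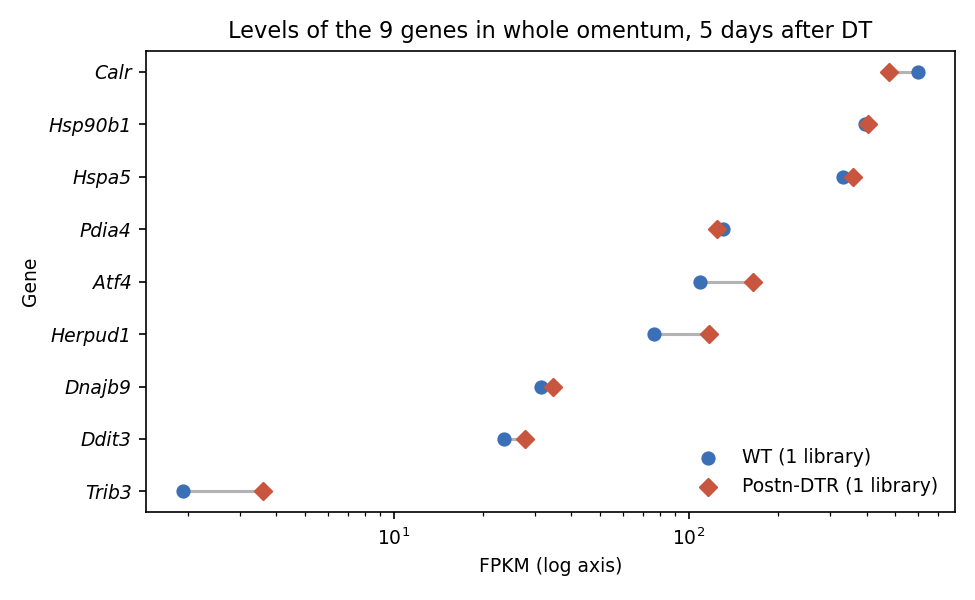
FPKM of the 9 genes on a log axis in the WT library (circles) and the Postn-DTR library (diamonds), with 1 library per genotype and genes ordered by their WT level. Calr is at the top with 598 and 477 and Trib3 at the bottom with 1.93 and 3.59, and the widest gaps are those of Trib3, Herpud1 and Atf4.

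The major chaperones were examined first. Hspa5 (ENSMUSG00000026864, chromosome 2, 34771970 to 34777547 on the plus strand, GRCm38) encodes BiP, the HSP70 of the ER lumen that binds unfolded chains and holds the 3 sensors inactive. Its FPKM was 332.2 in WT against 359.4 in Postn-DTR, a 1.08-fold difference and a change of 0.11. A higher change was found in 39.9% of all genes compared, so BiP stood in the middle of the distribution. Hsp90b1 (ENSMUSG00000020048, chromosome 10, 86690209 to 86705509 on the minus strand) encodes GRP94, the HSP90 of the ER lumen, which folds integrins and Toll-like receptors among others. Its FPKM was 395.6 and 404.7, a change of 0.03. GENCODE places 1810014B01Rik and Gm15344 over part of Hsp90b1. The levels of both genes were thus nearly equal in the 2 libraries, and in the windows searched Hsp90b1 carries 2 exact ERSE matches and Hspa5 carries 1.

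Calr (ENSMUSG00000003814, chromosome 8, 84841850 to 84846934 on the minus strand) encodes calreticulin, a calcium-binding chaperone that holds glycoproteins until they are folded. It was the most abundant of the 9 genes in both libraries, with an FPKM of 597.8 in WT against 477.1 in Postn-DTR. The level in Postn-DTR was 0.798 times that in WT, a change of -0.32 and the lowest of the 9 changes. Pdia4 (ENSMUSG00000025823, chromosome 6, 47796141 to 47813430 on the minus strand) encodes a disulfide isomerase of the lumen. Its FPKM was 130.3 and 124.5, a change of -0.07. By level, Hspa5, Hsp90b1, Calr and Pdia4 together had a summed FPKM of 1456 in WT against 1366 in Postn-DTR, which was 0.269% and 0.203% of all FPKM. The summed acinar markers, from cells rich in these chaperones, were far lower in Postn-DTR as given above, and their part in the chaperone values was not tested.

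Dnajb9 and Herpud1 belong to the clearance side of the response. Dnajb9 (ENSMUSG00000014905, chromosome 12, 44205559 to 44210326 on the minus strand) encodes ERdj4, a J-domain cochaperone of BiP induced through XBP1. Its FPKM was 31.5 in WT against 34.6 in Postn-DTR, a change of 0.13, and 38.1% of all genes compared had a higher one. Herpud1 (ENSMUSG00000031770, chromosome 8, 94386438 to 94395377 on the plus strand) encodes a membrane protein that organises the ubiquitin ligase of ER-associated degradation. Its FPKM was 76.4 and 116.7, which was 1.53-fold higher in Postn-DTR with a change of 0.60. A higher change was found in 9.30% of all genes compared. The change of Herpud1 was thus above that of each luminal chaperone among the 9. GENCODE places a non-coding gene, Gm15890, on the opposite strand of Herpud1. The library kit keeps strand, but whether strand was used in counting was not given in the sources used here.

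The remaining genes belong to the ATF4 arm. Atf4 (ENSMUSG00000042406, chromosome 15, 80255184 to 80257541 on the plus strand) encodes the transcription factor translated when eIF2α is phosphorylated. Its FPKM was 109.3 in WT against 164.8 in Postn-DTR, which was 1.51-fold higher with a change of 0.59. ATF4 is controlled mainly at translation, which RNA-seq does not measure. Ddit3 (ENSMUSG00000025408, chromosome 10, 127290774 to 127296288 on the plus strand) encodes CHOP, a factor of prolonged stress that can promote cell death. Its FPKM was 23.6 and 27.8, a change of 0.23, and 28.9% of all genes compared had a higher one. Mars on the opposite strand, Gm4189 and a second GENCODE gene of the same symbol overlap Ddit3, so its value is less certain. Trib3 (ENSMUSG00000032715, chromosome 2, 152337422 to 152344032 on the minus strand) encodes a pseudokinase induced by ATF4 and CHOP that feeds back on both. Its FPKM was 1.93 and 3.59, which was 1.86-fold higher in Postn-DTR with a change of 0.65, the highest of the 9. At its low level the change depended on the pseudocount and was 0.86 with a pseudocount of 0.1 and 0.31 with one of 5.

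**Figure D2:**
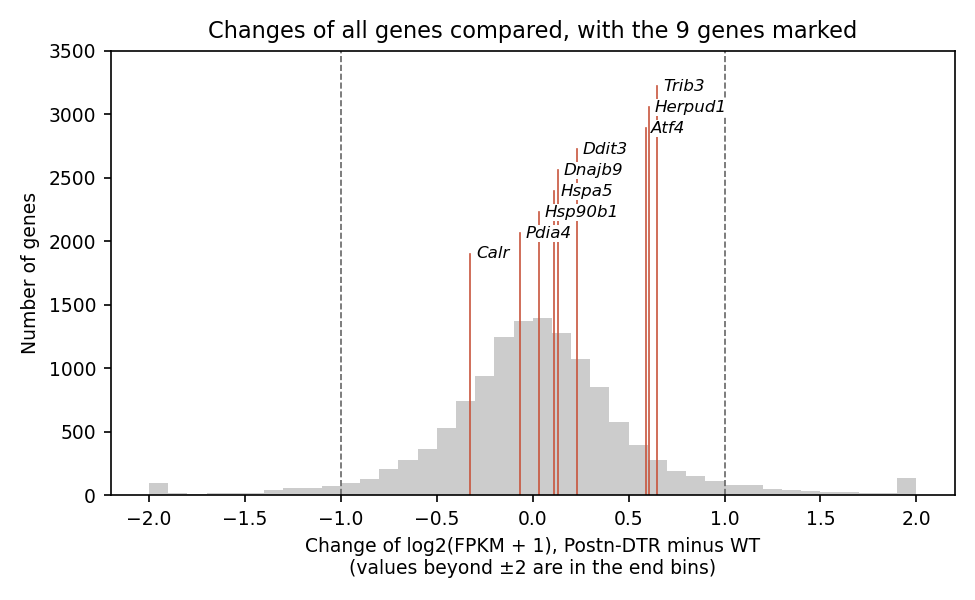
Histogram of differences in log2(FPKM + 1), with WT subtracted from Postn-DTR, over the 13127 genes compared, with the 9 genes marked by vertical lines whose height has no meaning and dashed lines at 2-fold. Calr is at -0.32, 5 genes lie between -0.07 and 0.23, Atf4, Herpud1 and Trib3 lie between 0.59 and 0.65, and none reaches a dashed line, while Hspa5, Hsp90b1, Dnajb9 and Ddit3 would lie below 0 at equal totals.

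The depth behind these values differed widely. From annotated lengths, Hspa5 rested on about 22873 fragments in WT and 25275 in Postn-DTR, which gives a 95% exact binomial interval of 1.06 to 1.10 for its fold. Trib3 rested on about 82 and 157 fragments, and its interval reached from 1.42 to 2.47. The interval was 1.46 to 1.60 for Herpud1, 1.43 to 1.59 for Atf4 and 0.784 to 0.812 for Calr. For Ddit3, with about 209 and 266 fragments, it reached from 0.979 to 1.42 and included equality. These intervals cover counting error only, are approximate, and say nothing of the variation between mice.

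The order of levels within each library was compared next. In WT it ran from Calr through Hsp90b1, Hspa5, Pdia4, Atf4, Herpud1, Dnajb9 and Ddit3 to Trib3. In Postn-DTR the only difference was that Atf4 stood above Pdia4. Among all genes compared, Calr ranked 146 by level in WT and 195 in Postn-DTR, and Herpud1 ranked 1094 and 770. Whether neighbours in these orders differ beyond the spread between mice could not be measured. Ratios within a library do not depend on how the libraries were scaled. Relative to Hspa5, Herpud1 was at 0.230 in WT against 0.325 in Postn-DTR, 1.41 times as high. The same ratio was 0.329 and 0.458 for Atf4, 1.39 times as high, and 1.80 and 1.33 for Calr, 0.738 times as high. The balance of Herpud1 and Atf4 against BiP was thus shifted in the Postn-DTR library whatever the scaling.

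The direction of the smaller changes depended on scaling. After removal of the acinar genes and scaling to equal totals, the median change of all genes moved from 0.02 to -0.28, and all 9 genes moved with it. Hspa5 was then at -0.22, Hsp90b1 at -0.30, Dnajb9 at -0.20 and Ddit3 at -0.10, which turned the direction of each, and the median of the 9 genes was -0.20. Herpud1 stayed above WT at 0.27, Atf4 at 0.25 and Trib3 at 0.41, all under 1.5-fold, and Calr and Pdia4 stayed below at -0.66 and -0.40. Hsp90b1 also turned, to -0.04, with both libraries at the same 75th percentile. Relative to the median of all genes under the equal totals, Herpud1 was at 0.55, Atf4 at 0.53 and Trib3 at 0.69, close to their values of 0.59, 0.57 and 0.63 as deposited. Hspa5 was at 0.06 and Hsp90b1 at -0.02 on that measure.

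**Figure D3:**
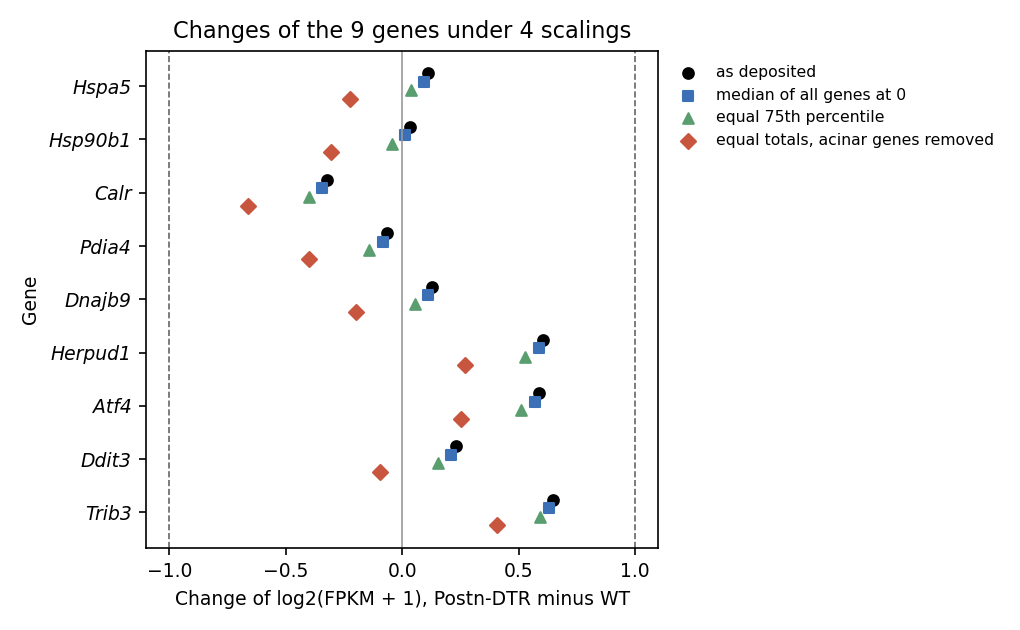
Differences in log2(FPKM + 1), with WT subtracted from Postn-DTR, for the 9 genes under 4 scalings of the libraries, with dashed lines at 2-fold. Herpud1, Atf4 and Trib3 lie above 0 and Calr and Pdia4 below 0 under all 4, and Hspa5, Hsp90b1, Dnajb9 and Ddit3 lie on either side of 0 depending on the scaling.

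To place the 9 genes in their pathway, 108 other genes of the ER, of ATF4 signalling and of the cytosolic and mitochondrial chaperone systems were compared, of which 106 passed the minimum of expression. Their median change was 0.20, with 72 above 0 and 34 below, where 51.9% of all genes compared were above 0. The median of all genes was 0.02, and 0.09 among those with a mean FPKM of at least 10. Medians of the lists with the 9 genes included lay between -0.38 and 0.16 at equal totals, where those of the translocon and ATF4 lists were above 0 and those of the other lists below. Of the 106 genes 6 were at least 2-fold higher and 1 was at least 2-fold lower, beside 3.88% and 3.12% of all genes compared. Selenos was matched under its older symbol Vimp.

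None of the 8 sensor genes was at least 2-fold higher or lower, beside 3.88% and 3.12% of all genes compared. Ern1, which encodes IRE1, was at an FPKM of 5.73 in WT against 9.64 in Postn-DTR, Eif2ak3, which encodes PERK, at 10.8 and 12.7, and Atf6 at 10.2 and 15.2. Xbp1, the substrate of IRE1 and a factor required by plasma cells, was the most abundant of this list. It was at 167 and 330.0, a 1.98-fold difference and a change of 0.98, just under 2-fold. FPKM per gene do not separate spliced from unspliced Xbp1 mRNA. The median change of the 8 sensor genes was 0.17. Among the plasma cell markers Mzb1, a cochaperone of the ER in B lineage cells, was at 97.8 and 244, and Jchain at 498 and 825. The part of plasma cells in the Xbp1 value was not tested.

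The other luminal chaperones had a median change of 0.20 over 12 genes, with 8 above 0 and 4 below. Serpinh1, which encodes the collagen chaperone HSP47, was the 1 past 2-fold, beside 3.88% (higher) and 3.12% (lower) of all genes compared. It had the highest level of them in WT and fell from an FPKM of 436 to 186, 2.35-fold lower with a change of -1.23, and it stayed at least 2-fold lower under all 7 alternatives. The 6 fibroblast markers summed to 4231 in WT against 3617 in Postn-DTR, with 4 of them lower, among them Col3a1 at 1264 and 699, while the most abundant, Dcn, was at 1875 and 2152, and their part in the Serpinh1 value was not tested. Creld2 and Manf, secreted proteins of the ER stress response, were at 58.0 and 91.4 and at 50.9 and 78.6. Sdf2l1 was at 57.2 and 62.1 and Hyou1 at 42.2 and 40.7, so that known targets of the same response differed in size. In the calnexin cycle Canx, which encodes the membrane-bound relative of calreticulin, was at 96.1 and 80.9. Of the 6 genes of this list, Calr included, 0 reached 1.5-fold, beside 9.86% (higher) and 8.84% (lower) of all genes compared.

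Disulfide isomerases had a median change of 0.22 over the 10 genes other than Pdia4. None reached 2-fold, beside 3.88% (higher) and 3.12% (lower) of all genes compared. P4hb, which encodes the main isomerase and a subunit of collagen prolyl hydroxylase, was the most abundant at 290.2 and 389. Pdia3 was at 268 and 258 and Pdia6 at 166 and 158, close to equal as Pdia4 was. Txndc5 was at 177 and 279 and Pdia5 at 7.88 and 12.6, both more than 1.5-fold higher in Postn-DTR. The isomerases therefore held both near-equal and higher members.

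For ER-associated degradation, 15 genes other than Herpud1 had a median change of 0.23, with 11 above 0. None reached 2-fold on the log2(FPKM + 1) scale, beside 3.88% (higher) and 3.12% (lower) of all genes compared. Derl3, a channel component used by secretory cells, came closest. It was at an FPKM of 21.9 and 44.5, a change of 0.99. Ube2g2, a ubiquitin-conjugating enzyme of the pathway, was at 32.8 and 55.4, and Selenos at 59.7 and 100.3. Syvn1, the ubiquitin ligase HRD1, was at 48.0 and 46.4, and Sel1l, its partner, at 31.4 and 35.1. Vcp, the ATPase that pulls proteins out of the membrane, was the most abundant at 169 and 143. The values of Herpud1 and of these genes thus ranged from below WT to close to 2-fold above.

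The translocon, signal peptidase and oligosaccharyltransferase genes, which bring proteins into the ER and glycosylate them, had a median change of 0.37 over 17 genes, with 15 above 0. Ssr4, a subunit of the translocon-associated complex, was the 1 gene past 2-fold, beside 3.88% (higher) and 3.12% (lower) of all genes compared. It rose from an FPKM of 144 to 308, a change of 1.09, which became 0.75 and thus under 2-fold at equal totals. At equal totals the median of the list was 0.03, beside -0.28 for all genes. The plasma cell markers given above were higher as well in the deposited scaling, and their part in this list was not tested.

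The changes in the ATF4 list ranged from -0.74 for Stc2 to 2.28 for Ddit4. Of the 19 genes compared other than Atf4, Ddit3 and Trib3, 4 were at least 2-fold higher and 0 at least 2-fold lower, beside 3.88% and 3.12% of all genes compared. Ddit4, which encodes the mTORC1 inhibitor REDD1 and also answers to glucocorticoids and hypoxia, rose from an FPKM of 34.7 to 173, or 4.97-fold. Chac1, which encodes a glutathione-degrading enzyme, was at 2.60 and 8.86, or 3.40-fold higher. Gdf15, a stress-induced cytokine, was at 1.12 and 3.998, and Ppp1r15a, which encodes GADD34 and reverses eIF2α phosphorylation, was at 12.3 and 27.6. Nupr1, the most abundant of the list, was at 236 and 343. The amino acid enzymes of the list lay on both sides of WT. Phgdh and Psat1, of serine synthesis, were at 69.4 and 48.8 and at 46.5 and 32.2, below WT, and Asns, of asparagine synthesis, was at 21.8 and 30.02. Of these 4 genes past 2-fold, the change of Chac1 dropped to 0.87 and Gdf15 to 0.56 with a pseudocount of 5, and Ppp1r15a to 0.91 there and to 0.78 at equal totals, while Ddit4 stayed past 2-fold under all 7 alternatives. The 4 eIF2α kinases were close to WT, with Eif2ak1, which senses heme, at 26.2 and 33.8 and a median change of 0.20.

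Chaperones outside the ER were set beside those of the ER, without a test of the difference. In the cytosolic heat shock list, 1 of the 11 genes was at least 1.5-fold higher and 0 were at least 1.5-fold lower, beside 9.86% and 8.84% of all genes compared, and the median change was -0.003. Hspa8, the constitutive HSP70 and the highest of the list in WT, was at 814 and 1046, and the heat-inducible pair Hspa1a and Hspa1b, near-identical copies whose separate values are uncertain, was at 2.63 and 2.81 (Hspa1a) and at 3.998 and 3.87 (Hspa1b). Hspb1, a small heat shock protein, was the 1 past 2-fold and rose from an FPKM of 197 to 1127, or 5.71-fold. The mitochondrial chaperones had a median change of 0.06 over 6 genes, with Hspe1 at 109.8 and 125.

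**Figure D4:**
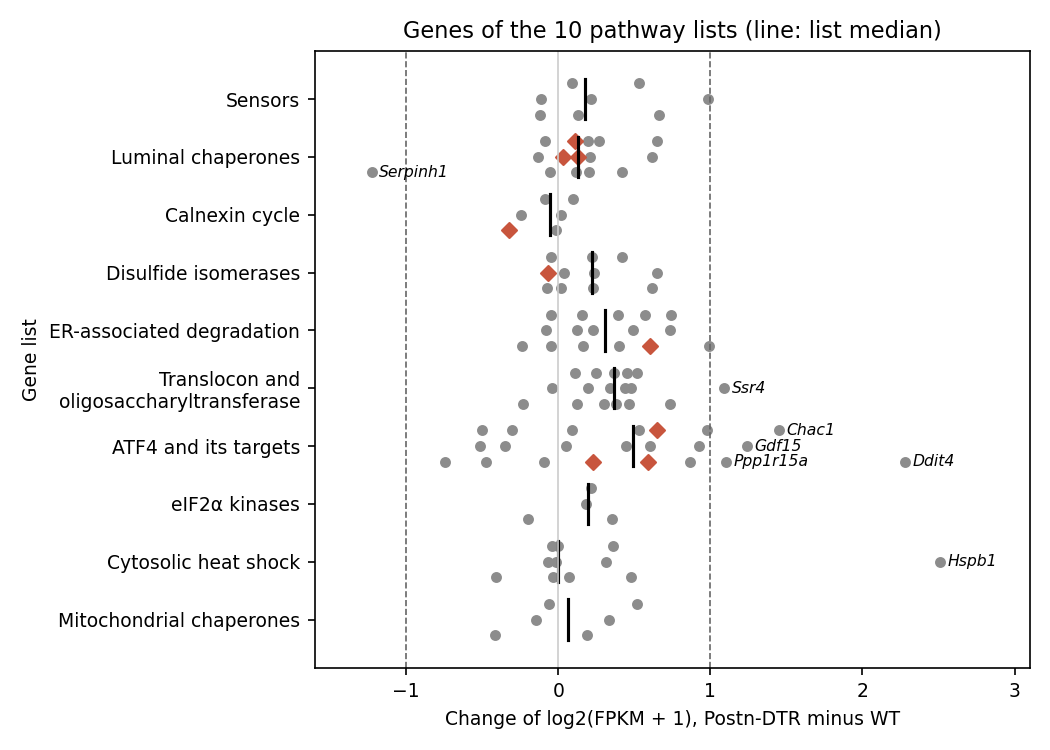
Differences in log2(FPKM + 1), with WT subtracted from Postn-DTR, for each gene compared in the 10 pathway lists, with the 9 genes as diamonds, other genes as circles, list medians as black lines and dashed lines at 2-fold. List medians lie between -0.05 for the calnexin cycle and 0.49 for ATF4 and its targets as deposited and are lower at equal totals, and the named points beyond the dashed lines are Serpinh1 on the low side and Ssr4, Ppp1r15a, Gdf15, Chac1, Ddit4 and Hspb1 on the high side.

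The changes of genes with these elements were set out last, without a test. Windows with an ERSE belonged to 37 gene symbols, of which 17 passed the minimum of expression. Their median change was -0.05, with 7 above 0 and none past 2-fold. Of all genes compared, 51.9% were above 0, 3.88% at least 2-fold higher and 3.12% at least 2-fold lower. The values of the 17 genes reached from -0.62 for Adcy3 to 0.99 for Derl3. Hspa5, Hsp90b1 and Calr, which are themselves among these 17 genes, were at 0.11, 0.03 and -0.32. Creld2, whose ERSE is printed beside that of Hspa5, was at 0.65. The 8 compared genes with ERSE-II had a median of 0.20, and the 76 with TTGCATCA a median of 0.10, of which 4 were at least 2-fold higher and 2 at least 2-fold lower, beside 3.88% and 3.12% of all genes compared.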

How the data were processed

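Whole omentum RNA of 1 WT and 1 Postn-DTR library, both 5 days after DT, was sequenced after stranded mRNA library preparation. The authors deposited FPKM, with 1 value per gene symbol. The submitters' processing notes name TopHat2 2.1.1, Bowtie2 2.2.8, SAMtools 0.1.18, Cuffdiff 2.2.1 and mm10, and the annotation is not given in the sources used here. Cuffdiff can rescale libraries against each other, so FPKM totals need not be equal.

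Groups came from the genotype labels. Changes were log2(FPKM + 1), Postn-DTR minus WT, for genes whose FPKM averaged 1 or more, and a gene was called at 2-fold on that scale. Positions and lengths came from GENCODE M21 (GRCm38), which matched 23310 symbols. Denominators were estimated from genes with 1 transcript and an FPKM under 0.15, 74.8% (WT) and 74.9% (Postn-DTR) of which came within 0.05 of whole fragments, the quantity the fit maximised. Computation used Python 3.11.15, pandas 2.3.3 and scipy 1.17.1. The steps that compute changes and calls were tested on simulated data with folds planted without noise. The other steps were not tested in this way. The members and lists were chosen with earlier results of these data known. Named were the 9 genes and, for each of 10 pathway lists, genes past 2-fold and the gene with the highest mean FPKM. Other pathway genes were named for their roles after their values were seen. Alternatives changed the pseudocount, the filter, the scaling and the fold called. Of the 10 marker lists, B cell, T cell, neutrophil and endothelial sums were 436 and 319.8, 65.1 and 30.7, 346 and 676, and 178 and 165 in WT and Postn-DTR, adipocyte sums 13942 and 13341, and mesothelial sums 468 and 474. Ly6g was not analysed here.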

Additional observations from a re-analysis of the deposited data

How the results depend on the processing

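No paired analysis was possible because each genotype had 1 library, and for the same reason no replicate could be left out. None of the 9 genes reached 2-fold under any of the 7 alternatives of pseudocount, filter and scaling. Of these, the filters cannot alter the change of a gene. With none past 2-fold as reported, a 3-fold threshold could call none. At a 1.5-fold threshold, with the other settings as reported, 3 were higher. The median change of the 9 genes moved from 0.13 to -0.20 at equal totals with the acinar genes removed. There the median of all genes moved from 0.02 to -0.28. The 6 other pathway genes at least 2-fold higher became 3 with a pseudocount of 5, 20 at 1.5-fold and 2 at 3-fold, and the 1 lower gene became 2 at 1.5-fold and 0 at 3-fold, as such choices do by construction. Of 62 changes of single members under these alternatives 48 moved by less than the counting error and 14 by more. The filter alternatives leave each of these changes as it was, so their share of the 48 was fixed in advance. Trib3 at 0.31 with a pseudocount of 5, against 0.65 as reported, also counted among the 48, because its counting error is wide. Over all genes compared, 643 were lower and 642 higher with a pseudocount of 0.1, 168 and 287 with one of 5, 173 and 303 at a mean FPKM of 10 or more, 793 and 306 at equal totals, 1160 and 1294 at 1.5-fold and 153 and 199 at 3-fold, beside 410 and 509 as reported. Trib3, at an FPKM under 10, has no value at a mean FPKM of at least 10. What depth limits most is the fold of Trib3 and Ddit3.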
